A study of Mus musculus with 36 samples.

Results

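The IL-6 family genes examined here are the cytokine genes Il6, Lif, Il11 and Clcf1, the receptor genes Il6ra, Lifr, Osmr and Il6st, the transcription factor gene Stat3 and the inhibitor gene Socs3. These 10 genes, of 43472 in the count table, were chosen by name for their place in the gp130 pathway, with earlier results of these data known, and all 10 are described. Their expression was followed in primary enteric glial cells (EGCs), the glia of the nervous system in the gut wall, which the labels give as WT and embryonic neurosphere-derived. The cells were unstimulated, or were kept in H-CM or TME-CM, for 6 h, 12 h or 24 h, which gives 9 groups of 4 libraries. TME-CM is medium in which cells from digested orthotopic tumors of MC38, a mouse colorectal cancer line, had been cultured overnight, and H-CM was made in the same way from healthy colon. Both media are mixtures from many cell types and not defined agents, so TME-CM against H-CM compares tumor with healthy tissue, and either against unstimulated EGCs also includes what any tissue medium does. The labels do not say that the 4 libraries of a group came from separate cultures, so p-values measure the spread between these libraries, which may be technical.

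Cytokines of this family signal by bringing together receptor chains at the cell surface, and all of them use the shared chain gp130, encoded by Il6st. Il6ra binds IL-6, Lifr binds LIF, and Osmr binds oncostatin M, each together with gp130. Janus kinases bound to the chains then phosphorylate STAT3, which enters the nucleus and activates genes such as Socs3, whose protein binds gp130 and the kinases and shuts the signal down. In the gut and brain, IL-6 and LIF are known as cytokines of inflammation and injury, and glia are able both to make them and to respond to them. RNA levels were measured here, not secreted cytokine or phosphorylated STAT3.

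Libraries held 2005239 to 5961933 counts at 12 h and 1608018 to 7552509 at 24 h, against 13518 to 5244763 at 6 h. H-CM 6 h replicate 4 is the shallowest. Levels are given in CPM, counts scaled to a common library size with TMM factors. Taking 3 counts as the limit that a 0 leaves, which covers counting error only, a gene unseen in that library could still be at 110 CPM, but at no more than 1.52 CPM in any library of 12 h or 24 h. The glial markers Sox10 and S100b were present, with medians over the 36 libraries of 66.9 and 67 CPM, and Gfap was low at 3.11 CPM. Markers of other cell types were present in the same libraries. Medians ran from 5.95 CPM (Wt1) to 3228 CPM (the collagen gene Col1a1) over the fibroblast markers used here. Over the smooth muscle markers they ran from 40 CPM (Myh11) to 2464 CPM (the smooth muscle actin gene Acta2). In these bulk samples the cell type that made a member's RNA was not measured. Fewer cells of a type and less RNA per cell cannot be told apart either.

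Several members rose together under TME-CM, and their promoters are shown here because they differ in the short motifs they hold. Promoters of RefSeq on GRCm38.p6, the assembly also called mm10, were matched for 9 of the 10 members. The 250 bases before each start were searched on both strands for TTCNNNGAA (bound by STAT factors), TGANTCA (bound by AP-1), TTGCNNAA (bound by C/EBP) and the NF-kB consensus. Over 32851 promoters, the shares with at least 1 match were 7.02% for the STAT motif, 6.75% for AP-1, 9.56% for C/EBP and 7.25% for NF-kB. The Il6 window held an NF-kB match 44 to 35 bases before the start and also an AP-1 and a C/EBP match. The Lif window held an NF-kB match 178 to 169 bases before the start and an AP-1 match, and the Socs3 window held a STAT match 154 to 146 bases before it. The windows of Osmr, Il6st, Il6ra, Lifr and Stat3 held none of the 4 motifs, and 1 of the 2 Il11 windows held an AP-1 match. None of these matches overlapped another, and a match describes letters and not binding. The stretches read 5′ to 3′ on the gene's strand, with the NF-kB or STAT match in capitals, and are cut so that they hold no base that GENCODE gives to an exon of the gene. The Socs3 stretch lies before the RefSeq start but inside the gene as GENCODE draws it, between the exons of the transcript that starts furthest upstream. The windows of Osmr and Lifr, and the Il11 window with the AP-1 match, also lie inside their genes so drawn. Bases before the GENCODE starts of Osmr and Lifr were not searched. Il6 is at chr5:30012864-30013113 (plus strand), Lif at chr11:4257318-4257556 (plus) and Socs3 at chr11:117969452-117969616 (minus).
Il6: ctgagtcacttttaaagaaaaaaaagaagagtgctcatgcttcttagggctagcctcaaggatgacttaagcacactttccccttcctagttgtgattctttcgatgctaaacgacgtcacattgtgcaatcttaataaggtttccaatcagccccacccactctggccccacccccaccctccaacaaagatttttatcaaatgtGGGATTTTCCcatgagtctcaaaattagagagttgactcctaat
Lif: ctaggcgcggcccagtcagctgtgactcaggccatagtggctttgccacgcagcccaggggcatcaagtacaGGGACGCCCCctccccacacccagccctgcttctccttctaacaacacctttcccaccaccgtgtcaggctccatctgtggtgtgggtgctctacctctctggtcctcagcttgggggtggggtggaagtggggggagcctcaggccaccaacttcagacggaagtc
Socs3: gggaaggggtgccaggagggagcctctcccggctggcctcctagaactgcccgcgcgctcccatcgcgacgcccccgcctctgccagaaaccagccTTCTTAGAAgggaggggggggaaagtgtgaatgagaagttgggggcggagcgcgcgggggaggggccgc

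Il6, at chr5:30013114-30019981, measured at most 5.79 CPM in the 24 libraries that had not seen TME-CM. Among them, H-CM 6 h replicate 4 and unstimulated 6 h replicate 3 held 0 counts, which still allows up to 110 and 15.7 CPM. At 12 h, it measured 0.508, 2.45, 0 and 0.956 CPM in the 4 unstimulated libraries, and 4.03, 0.704, 0 and 0.876 CPM in H-CM. In TME-CM it measured 38.1, 32.7, 37.7 and 56.2 CPM, from 82 to 219 counts per library. All 4 TME-CM libraries lay far above the other 8, and the log2 fold change was 4.97 over H-CM (SE 0.66, adjusted p = 3.34e-04, edgeR) and 5.44 over unstimulated EGCs (SE 0.72, adjusted p = 6.87e-05).

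At 24 h, Il6 was lower in all 4 TME-CM libraries than in any TME-CM library of 12 h, at 22.9, 9.57, 9.4 and 10.6 CPM. H-CM libraries held 3.19, 1.78, 0.327 and 0 CPM at that time, and unstimulated ones 0.123 to 1.75 CPM. The groups did not overlap, and Il6 rose by 3.22 on the log2 scale over H-CM (SE 0.62, adjusted p = 0.00294) and by 3.82 over unstimulated EGCs (SE 0.64, adjusted p = 3.71e-04). The log2 difference between TME-CM at 24 h and 12 h was -1.63 (SE 0.53), which did not pass (adjusted p = 0.317, edgeR, against 0.512% of genes called in that comparison). The change of its TME-CM effect over H-CM between 12 h and 24 h was -1.76 (SE 0.95, adjusted p = 1). At 6 h the gene did not pass the filter on low counts, with 25.1, 27.6, 0.82 and 60.7 CPM in TME-CM against 0 to 5.79 CPM in H-CM, so that one TME-CM library with 2 counts lay among the controls. Ordered by mean, Il6 stood at 41.2 CPM in TME-CM at 12 h, 28.6 at 6 h and 13.1 at 24 h, and at 2.18 CPM or less in the other 6 groups. The 6 h group overlapped both TME-CM neighbours, and the 6 groups at the bottom overlapped each other.

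Lif, the gene of leukemia inhibitory factor (chr11:4257557-4272514), was called in TME-CM against H-CM at 24 h, but in neither medium against unstimulated EGCs. At 24 h, it measured 6.26, 5.12, 4.5 and 3.21 CPM in unstimulated EGCs, 2.19, 2.26, 1.96 and 2.47 CPM in H-CM, and 6.62, 9.19, 9.4 and 6.2 CPM in TME-CM. H-CM libraries lay below all others, while the highest unstimulated library reached the lowest of TME-CM. Lif was higher in TME-CM than in H-CM by 1.83 on the log2 scale (SE 0.35, adjusted p = 0.00219), but not past the threshold against unstimulated EGCs (0.72, SE 0.32, adjusted p = 0.214). H-CM against unstimulated EGCs gave -1.10 (SE 0.36, adjusted p = 0.146, edgeR). At 12 h, TME-CM libraries held 6.93 to 14.1 CPM and all others 0.228 to 5.98 CPM, without overlap, and the log2 difference from H-CM was 1.84 (SE 0.66, adjusted p = 0.239). At 6 h, Lif did not pass the filter and measured 19.8, 10.5, 0.82 and 13.7 CPM in TME-CM against 0 to 3.13 CPM in the other groups.

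Clcf1, which encodes the cardiotrophin-like cytokine that signals through the CNTF receptor, differed less. It was at 4.89 ± 2.56 CPM (SD, n = 4) in unstimulated EGCs, 7.99 ± 3.22 in H-CM and 11.4 ± 2.45 in TME-CM at 24 h, with TME-CM libraries at 12.5, 12.6, 12.6 and 7.7 CPM. The group overlapped both controls. Clcf1 rose over unstimulated EGCs (log2 fold change 1.19, SE 0.35, adjusted p = 0.0291, edgeR), a call that held in 3 of 8 fits with a library removed (adjusted p = 0.114 without unstimulated replicate 3). Against H-CM the difference was 0.57 (SE 0.34, adjusted p = 0.461). At 12 h the H-CM group held 28.9 CPM in replicate 3 and 5.11 to 6.69 CPM in the others, and the log2 difference of TME-CM from H-CM was -0.18 (SE 0.51, adjusted p = 0.94). Clcf1 shares 311 exon bases with AC109138.7 on the same strand, so its reads may be split.

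Il11, the gene of interleukin 11, was not tested at any time because its counts were too low. At 12 h and 24 h, its highest library held 2.24 CPM, from 11 counts in TME-CM 12 h replicate 1, and every other library held 5 counts or fewer. At this depth no difference between the media could be seen. At 6 h it was found at 15.6 CPM in TME-CM replicate 1 and at 0 in the other 3, beside 7.88, 5.39, 1.56 and 0 CPM in unstimulated EGCs.

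**Figure D1:**
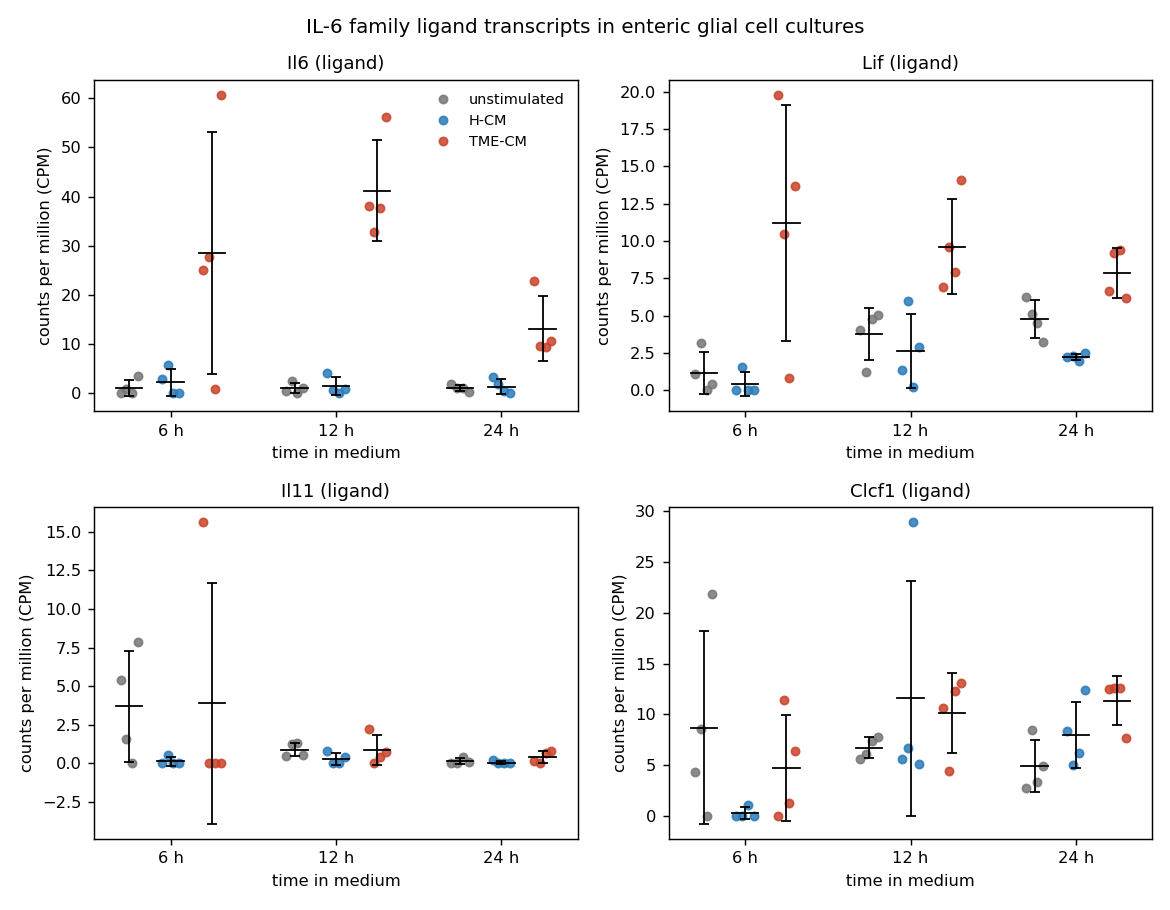
Expression of the 4 ligand genes in CPM (vertical axes, linear) by time and medium, with 1 point per library, a line at the mean and a bar of 1 SD (n = 4). Il6 in TME-CM lies between 32.7 and 56.2 CPM at 12 h and between 9.4 and 22.9 CPM at 24 h, above all control libraries, whereas Il11 stays at 2.24 CPM or less at both times.

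Osmr, the signal-transducing receptor chain for oncostatin M (chr15:6813577-6874969), was the one member that passed the test at all 3 times. At 12 h, it measured 12.7, 14.3, 13.7 and 16.8 CPM in unstimulated EGCs, 36.8, 22.7, 23 and 20.1 CPM in H-CM and 76.6, 46.7, 75.5 and 57.2 CPM in TME-CM. The 3 groups formed 3 steps without overlap. The rise over H-CM was 1.33 on the log2 scale (SE 0.24, adjusted p = 0.00401) and that over unstimulated EGCs 2.14 (SE 0.26, adjusted p = 1.74e-05). H-CM against unstimulated EGCs gave 0.80 (SE 0.25, adjusted p = 0.398, edgeR), and 1 H-CM library, replicate 1, stood above the rest of its group.

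At 24 h, Osmr measured 65.8, 44, 65.9 and 56.8 CPM in TME-CM, against 29.7, 12.5, 20.1 and 14.8 CPM in H-CM and 10.8 to 16 CPM in unstimulated EGCs. Here H-CM overlapped the unstimulated group and TME-CM did not overlap either, with log2 fold changes of 1.58 (SE 0.22, adjusted p = 8.02e-05) and 2.06 (SE 0.22, adjusted p = 9.37e-07). At 6 h, TME-CM libraries held 198, 81, 154 and 136 CPM, against 10.5 to 37.3 CPM in unstimulated EGCs and 20.4, 18.4, 23.3 and 0 CPM in H-CM, the 0 from the shallowest library. Osmr was higher than in H-CM by 2.84 (SE 0.56, adjusted p = 0.033), a call held in 1 of 8 fits with one library left out (adjusted p up to 0.299 without H-CM replicate 2). The call was lost with the replicate number as a block (2.74, adjusted p = 0.102) and with DESeq2 size factors (2.73, adjusted p = 0.0741), and held without the 2 libraries under 300000 counts (2.82, adjusted p = 0.0299). Against unstimulated EGCs the log2 fold change was 2.58 (SE 0.52, adjusted p = 0.0137), called in 6 of 8 such fits (adjusted p = 0.0969 without unstimulated replicate 1). The share of counts taken by the gene Yam1 differed between libraries at 6 h. It was 12.3%, 37.8%, 11% and 14.2% in TME-CM, 48.6%, 43.9%, 47.9% and 20% in H-CM and 46.3%, 44%, 43.1% and 13.1% in unstimulated EGCs. The lowest shares were in the deepest libraries of 6 h, TME-CM replicates 1, 3 and 4 and unstimulated replicate 4 (2919357 to 5244763 counts). TME-CM replicate 2 held 1321201 counts, and H-CM replicate 4, at 20%, held 13518. Unstimulated replicate 4, with the lowest share among the controls, held the highest control level of Osmr (37.3 CPM) and of Socs3 (31.5 CPM), and TME-CM replicate 2, with the highest share in its group, held 81 and 53.4 CPM. With Yam1 left out, a fit chosen after seeing the data, Osmr differed from H-CM at 6 h by 2.87 (adjusted p = 0.0319, edgeR). Socs3 differed by 3.19 (adjusted p = 0.148). From unstimulated EGCs they differed by 2.58 (adjusted p = 0.0149) and 2.83 (adjusted p = 0.0753). What moved the share was not tested. The change of the Osmr effect over H-CM from 6 h to 24 h was -1.24 (SE 0.51) and did not pass (adjusted p = 0.508). Group means ran from 142 CPM in TME-CM at 6 h to 64 and 58.1 at 12 h and 24 h, and the last of these overlapped each other.

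The other receptor chains moved little or not detectably. Il6st, the shared chain gp130 (chr13:112464070-112510086), measured 113, 114, 114 and 106 CPM in unstimulated EGCs, 130, 126, 122 and 128 CPM in H-CM and 162, 160, 135 and 150 CPM in TME-CM at 24 h. The 3 groups again did not overlap, although the steps were small. Il6st rose above the unstimulated level (log2 fold change 0.44, SE 0.11, adjusted p = 0.0125, edgeR). The call held in 6 of 8 fits with a library removed, with an adjusted p of 0.0505 without TME-CM replicate 1. It was 0.0526 without the filter on low counts. Against H-CM the difference was 0.26 (SE 0.11, adjusted p = 0.244), and at 12 h it was 0.27 (SE 0.20, adjusted p = 0.703). At 6 h, TME-CM replicate 3 held 399 CPM and the other 3 libraries 114 to 159 CPM.

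Il6ra, the chain that binds IL-6, lay between 4.45 and 13.2 CPM in all 12 libraries of 24 h. TME-CM overlapped both controls, with log2 differences of 0.53 from H-CM (SE 0.27, adjusted p = 0.365) and 0.37 from unstimulated EGCs (SE 0.27, adjusted p = 0.54). At 12 h, H-CM libraries held 9.11 to 11.4 CPM and unstimulated ones 2.05 to 9.15 CPM with overlap (adjusted p = 0.838). Il6ra shares 242 exon bases with Gm42809 on the opposite strand, and the sources used here do not state a strand setting. Lifr, the chain that binds LIF, measured 8.49, 5.36, 5.37 and 7.54 CPM in TME-CM at 24 h, within the range of the controls (4.76 to 13.3 CPM), and its log2 difference from H-CM was -0.50 (SE 0.29, adjusted p = 0.442). At 12 h, it ranged from 1.82 to 19.3 CPM in H-CM alone, a spread wider than any difference between groups (log2 difference between TME-CM and H-CM -0.03, SE 0.52, adjusted p = 0.993).

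Within a library, Osmr and Lifr changed unequally. The ratio of Osmr to Lifr reads, which depends on neither depth nor scaling, was 1.46 to 2.26 in unstimulated EGCs, 1.11 to 3.31 in H-CM and 7.53 to 12.3 in TME-CM at 24 h. At 12 h the ranges were 1.41 to 2.27, 1.57 to 12.6 and 4.7 to 11.7, so that 1 H-CM library, replicate 3 with 8 Lifr counts, overlapped TME-CM. The ratio compares reads and not molecules per length.

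**Figure D2:**
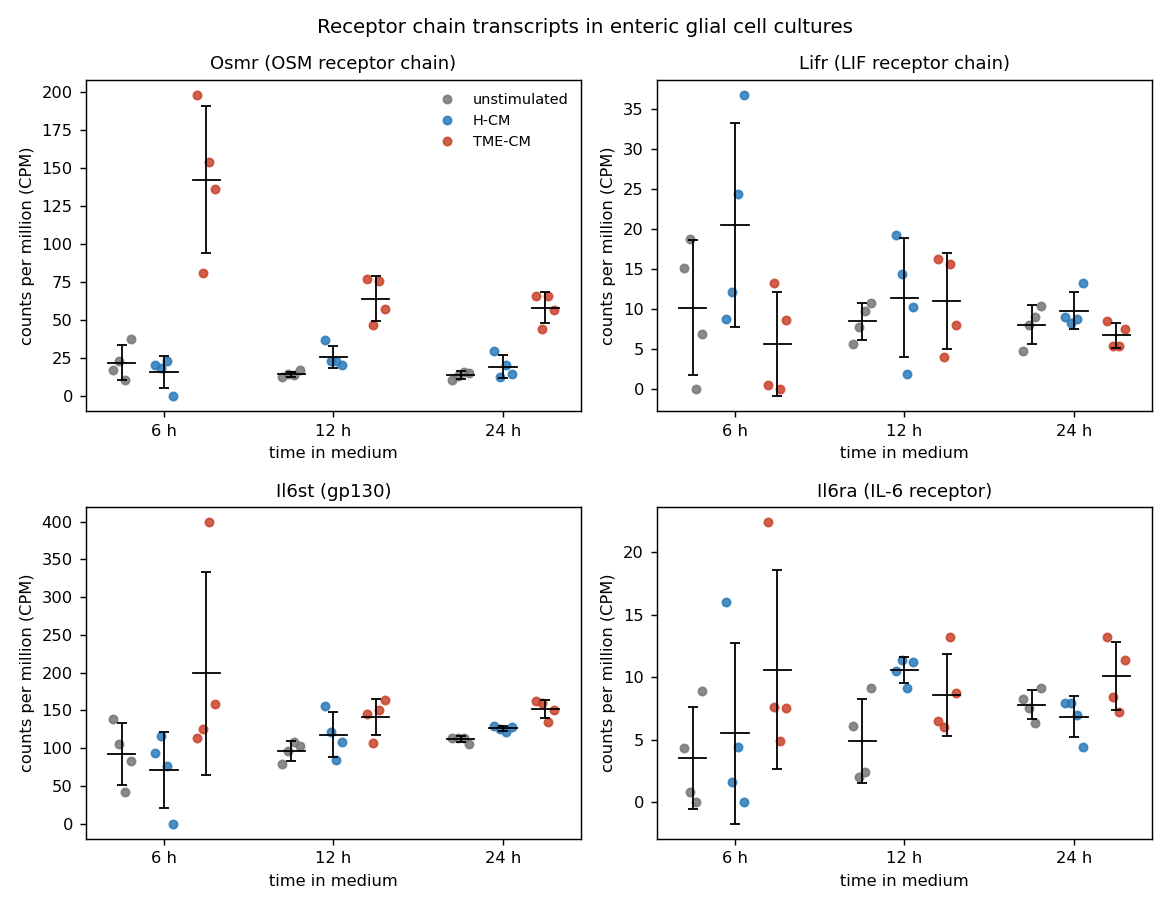
Expression of the 4 receptor chain genes in CPM (vertical axes, linear, scaled for each gene) by time and medium, with 1 point per library, a line at the mean and a bar of 1 SD (n = 4). Osmr stands at 44 to 65.9 CPM in TME-CM at 24 h and at 29.7 CPM or less in the controls, and Lifr and Il6ra overlap between the media.

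Stat3 (chr11:100885098-100939540) was well expressed in every group and rose slightly. At 24 h, it measured 213, 225, 244 and 252 CPM in unstimulated EGCs, 288, 290, 336 and 290 CPM in H-CM and 368, 293, 384 and 324 CPM in TME-CM. Both media lay above the unstimulated group and overlapped each other. TME-CM was higher than unstimulated by 0.55 on the log2 scale (SE 0.12, adjusted p = 0.00271), H-CM by 0.37 (SE 0.12, adjusted p = 0.137, edgeR), and TME-CM differed from H-CM by 0.18 (SE 0.12, adjusted p = 0.509). At 12 h, TME-CM libraries held 411, 339, 422 and 300 CPM, above all H-CM libraries (180 to 296 CPM) and unstimulated ones (222 to 277 CPM). Those differences were 0.60 from H-CM (SE 0.18, adjusted p = 0.107) and 0.61 from unstimulated EGCs (SE 0.18, adjusted p = 0.059). Both were past the threshold with the DESeq2 Wald test (adjusted p = 0.0366 and 0.0207), and neither with DESeq2 size factors in edgeR. The second also passed with only the groups compared. With one library left out, the calls were made in 0 of 8 fits (adjusted p up to 0.272) and 1 of 8 (up to 0.202). Stat3 shares 72 exon bases with Stat5a on the opposite strand.

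Socs3, the feedback inhibitor (chr11:117966079-117970047), was higher in TME-CM than in both controls at 12 h and 24 h. At 24 h, it measured 5.26, 13.8, 11.1 and 12.2 CPM in unstimulated EGCs, 20.3, 17, 10.9 and 13.3 CPM in H-CM and 84.7, 62, 63.8 and 60.1 CPM in TME-CM. All TME-CM libraries lay above all others, with log2 fold changes of 2.13 over H-CM (SE 0.23, adjusted p = 3.93e-06) and 2.64 over unstimulated EGCs (SE 0.23, adjusted p = 6.37e-08). At 12 h, it held 64.2, 28, 50 and 59.3 CPM in TME-CM, against 7.15 to 15.3 CPM in the 8 control libraries (log2 fold change over H-CM 2.14, SE 0.31, adjusted p = 5.75e-04). The groups were again apart, and the change of the effect over H-CM from 12 h to 24 h was -0.00 (SE 0.27).

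At 6 h, Socs3 in TME-CM measured 159, 53.4, 130 and 52.8 CPM, all above H-CM (0 to 20.4 CPM) and above unstimulated EGCs (4.69 to 31.5 CPM). The differences of 3.15 (SE 0.77, adjusted p = 0.161) and 2.84 (SE 0.71, adjusted p = 0.073) did not pass the threshold. Without the filter on low counts they did (adjusted p = 0.0212 and 0.0136, edgeR), as with the DESeq2 Wald test (0.0484 and 0.0351) and all 36 libraries in one model (4.8e-04 and 2.4e-04). With only the groups compared, adjusted p was 0.0485 and 0.137. Neither passed with DESeq2 size factors (0.29 and 0.127) or the replicate number as a block (0.401 and 0.149). With one library left out, Socs3 was called over H-CM in 0 of 8 fits (adjusted p up to 0.761) and over unstimulated EGCs in 2 of 8 (up to 0.34).

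**Figure D3:**
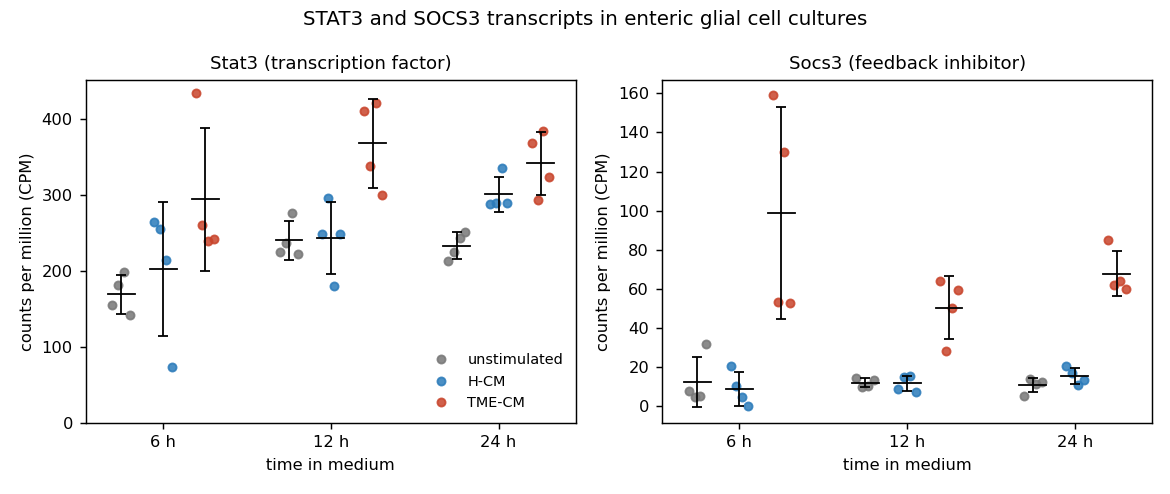
Expression of Stat3 and Socs3 in CPM (vertical axes, linear) by time and medium, with 1 point per library, a line at the mean and a bar of 1 SD (n = 4). Socs3 in TME-CM lies at 28 CPM or more at 12 h and 60.1 CPM or more at 24 h, above all controls, whereas Stat3 in TME-CM overlaps H-CM at 24 h.

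The counts over the family are a description, since the members were chosen with earlier results known. TME-CM against H-CM called 1 of 5 tested members at 6 h, where 0.0972% of all genes tested were called higher. It called 3 of 9 at 12 h (Il6, Osmr and Socs3, against 1.22% of all genes) and 4 of 9 at 24 h (the same with Lif, against 2.75% of all genes), all higher. TME-CM against unstimulated EGCs called 1 of 5 at 6 h (0.432% of all genes), 3 of 9 at 12 h (2.67%) and 6 of 9 at 24 h (4.82%), again all higher. The 6 of 24 h were Il6, Clcf1, Osmr, Il6st, Stat3 and Socs3. These comparisons share their TME-CM libraries and are not independent. With all 36 libraries in one model, which takes one spread over all 3 times, 2 members (Osmr and Socs3) were called over H-CM at 24 h and 3 (with Il6) over unstimulated EGCs, and the adjusted p over H-CM was 0.127 for Il6 and 0.855 for Lif. The median log2 difference of the tested members between TME-CM and H-CM was 0.60 at 12 h and 0.57 at 24 h, beside medians of 0 over all genes. Groups did not overlap for 5 of the 9 members at each of these times, always with TME-CM the higher, and 3.95% and 5.59% of all genes lay wholly above H-CM.

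H-CM against unstimulated EGCs called 0 members at every time, where 0%, 0.403% and 2.03% of all genes were called by edgeR. At an unadjusted p under 0.05 (edgeR), 0 of 5 tested members passed at 6 h, where 58 genes out of 9256 did. The 12 h test passed 2 of 9 members, beside 688 genes out of 12156. The 24 h test passed 4 of 9 members, beside 1349 genes out of 12713. The DESeq2 Wald test called 1 member, Stat3, at 24 h. No member changed its TME-CM effect between 12 h and 24 h or between 6 h and 24 h after adjustment (0 and 1 at an unadjusted p under 0.05). In those tests 0% of genes were called at all, with 358 of 12702 and 1021 of 12115 at an unadjusted p under 0.05.

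**Figure D4:**
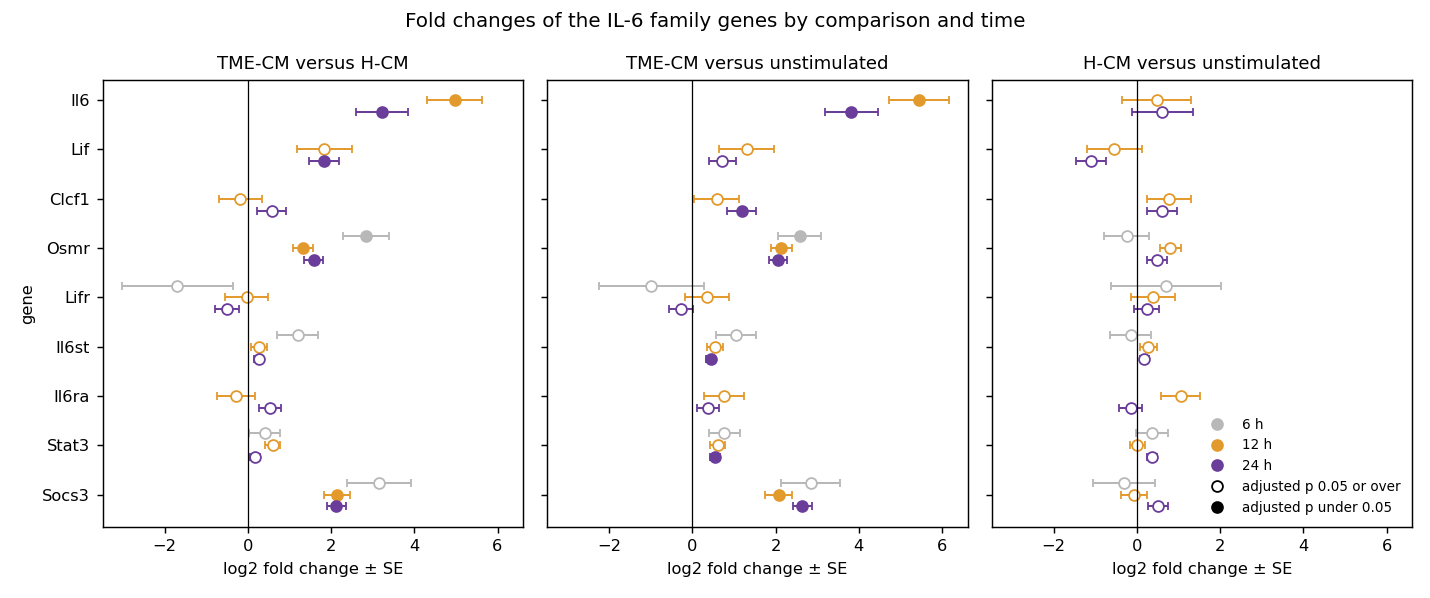
Log2 fold changes with standard errors (horizontal axes) of the 9 members tested, by comparison and time (n = 4 libraries per group). Filled points passed an adjusted p under 0.05 (edgeR); in TME-CM against H-CM these are Osmr at 3 times, Il6 and Socs3 at 12 h and 24 h and Lif at 24 h, and in H-CM against unstimulated EGCs there are none.

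Most of the 9 further ligand genes of the family were scarce in these cultures. Ctf2, Il12a and Il31 had no count in any of the 36 libraries, Il27 had 1 count and Cntf 8. Osm, whose product oncostatin M is the ligand of Osmr and is made mostly by leukocytes, had 30 counts in 8 libraries, with group means of 0.439 CPM or less at 12 h and 24 h. Ctf1 had 156 counts and Ebi3 110 in all.

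Of 5 further receptor genes, Il11ra1 was at 73.3 to 116 CPM in the group means of 12 h and 24 h and Cntfr at 2.54 to 4.46 CPM. Neither passed the test, with log2 differences between TME-CM and H-CM at 24 h of -0.30 (SE 0.14, adjusted p = 0.281) and -0.42 (SE 0.45, adjusted p = 0.743). Il11ra2 had no count, and Il27ra and Il31ra had 5 and 9 counts in all 36 libraries.

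Among 20 genes known as STAT3 targets, those that passed the test in TME-CM against H-CM were nearly all higher. Of the 20, 7 passed as higher at 12 h and 8 at 24 h, where 1.22% and 2.75% of all genes were called higher, and 0 and 1 were lower. The median log2 difference over the 20 was 0.66 at 12 h and 0.64 at 24 h, beside 0 over all genes. Lcn2 and Timp1 also belong to a gene module that the study derived from these samples, so the list is not independent evidence of its direction. Many of the targets also answer to NF-kB, and the factor that moved them was not measured.

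Cebpd, a transcription factor of the acute-phase response, was at 298 ± 15.6 CPM in TME-CM, 52.1 ± 27.6 in H-CM and 24.5 ± 3.71 in unstimulated EGCs at 24 h (log2 fold change over H-CM 2.50, SE 0.25, adjusted p = 1.24e-05). Bcl3, a nuclear partner of NF-kB, rose from 10.8 ± 5.3 to 50.1 ± 13.8 CPM (2.22, SE 0.31, adjusted p = 1.55e-04), and Hif1a, the hypoxia-inducible factor, from 183 ± 68.9 to 483 ± 92.5 CPM (1.40, SE 0.19, adjusted p = 1.56e-04). Saa3, a serum amyloid, reached 15124 ± 2308 CPM from 593 ± 672 in H-CM. Cebpb rose at 12 h (1.45, SE 0.27, adjusted p = 0.00412) and was at 1.20 at 24 h (SE 0.35, adjusted p = 0.0745). The single gene that fell, named after its value was seen, was Ccnd1, which encodes cyclin D1 (-0.42 at 24 h, SE 0.11, adjusted p = 0.0306). Gfap, known as a STAT3 target in astrocytes, was at 4.08 CPM in TME-CM and 3.15 CPM in H-CM at 24 h, with an adjusted p of 0.701.

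**Figure D5:**
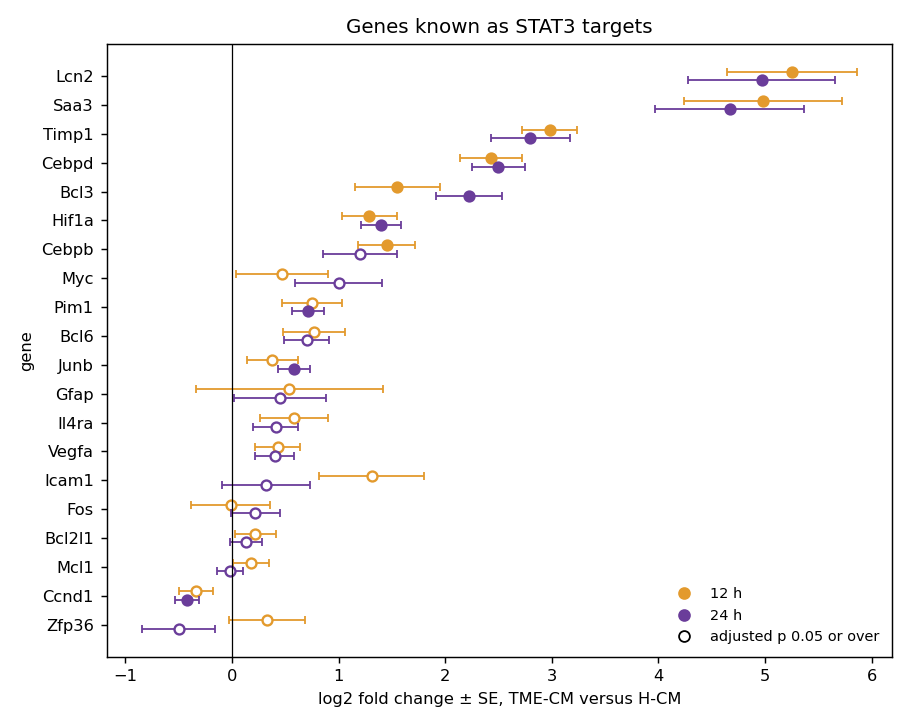
Difference between TME-CM and H-CM on the log2 scale with its standard error (horizontal axis) for 20 genes known as STAT3 targets at 12 h and 24 h (n = 4 libraries per group, edgeR). Filled points passed an adjusted p under 0.05, which 7 genes did at 12 h, all higher, and 9 at 24 h, with Ccnd1 the one lower.

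Markers of other cells were set beside these results. In TME-CM against H-CM, 1.22% of all genes tested were called higher and 0.675% lower at 12 h, and 2.75% and 2.65% at 24 h. Against unstimulated EGCs these shares were 2.67% and 1.74% at 12 h, and 4.82% and 4.7% at 24 h. Summed over 9 macrophage and monocyte markers, the level at 24 h was 65.7 to 338 CPM in TME-CM and 73.1 to 318 in H-CM, and 0 of 7 tested markers differed. Their medians over the 36 libraries ran from 0 (Aif1 and Cx3cr1) to 97.7 CPM (Lyz2). At 12 h the sums were 68.4 to 337 and 73 to 231 CPM, and 0 of 7 differed. Of 7 fibroblast markers, 4 passed as higher in TME-CM over H-CM at 24 h (Col3a1, Dcn, Lum and Pdgfra) and 1 at 12 h (Dcn), with sums of 6323 to 8022 against 5029 to 5698 CPM at 24 h. Of 6 smooth muscle markers, 4 were lower at 24 h and 2 at 12 h, with sums of 1640 to 2382 against 3160 to 3881 CPM at 24 h. Of 8 enteric glia markers, 0 differed at either time. With shares of called genes this small, 0 of 7 or 0 of 8 markers cannot show that cell content was alike. Of 3 endothelial markers, 2 were tested and 1, Kdr, was lower at 24 h, with sums of 10.2 to 24.6 against 30.7 to 60.3 CPM, and 0 differed at 12 h. Against unstimulated EGCs, TME-CM had 5 of 6 smooth muscle markers lower at 12 h and 6 of 6 at 24 h, where the sums were 1640 to 2382 against 6829 to 7845 CPM. In that comparison the fibroblast markers Dcn and Pdgfra were higher at both times and Col1a1 lower at 24 h, the glial marker Ncam1 and at 24 h Kdr were lower, and 0 of 7 macrophage markers differed. The part of these cells in the members' changes was not tested.

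Over the 24 libraries of 12 h and 24 h, the genes whose log2 CPM was most like Il6 among 12033 were Sod2 (r = 0.925), Nos2 (0.923) and Timp1 (0.921), and Osmr came at rank 50 (0.86) and Socs3 at rank 152 (0.793). For Osmr they were Sod2 (0.951), Ier3 (0.949) and Cebpd (0.948), and for Socs3 they were Saa1 (0.933), Cartpt (0.915) and Serping1 (0.915). For Lif, the highest were Cept1 (0.841), Cplx1 (0.824) and Fam114a2 (0.812), with Il6 at rank 217 (0.635). Il6ra and Lifr stood far down the list of Il6, at ranks 2349 and 4995. These correlations describe libraries that share their media, times and depths, and no p is given.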

How the data were processed

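RNA of 36 libraries (9 groups of 4) was measured by 3′ RNA sequencing (QuantSeq). Per the study's methods, the authors removed adapters (fastq-mcf) and placed reads on mm10 (HISAT2). Multi-mapping reads were dropped, and HTSeq-count gave the raw counts per gene that the authors deposited. The submitters' processing notes also name FastQC 0.11.7 and SAMtools 1.5. The annotation and strand setting are not given in the sources used here. Reads of overlapping or near-identical genes may therefore be split or lost.

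Groups came from the labels. Genes were kept by filterByExpr (minimum count 10), scaled by TMM, and tested with edgeR 4.0.16 (robust quasi-likelihood, R 4.3.3) in one model per time over its 12 libraries, with Benjamini-Hochberg adjustment over all genes tested and a threshold of 0.05. Changes of an effect between times were tested as interactions over 16 libraries. CPM values use TMM factors over all 36 libraries. Log2 CPM for likeness used a prior count of 2. Alternatives were DESeq2 1.42.0 (size factors, and its Wald test), no filter, only the groups compared, all libraries in one model, the replicate number as a block, and each library left out in turn. On simulated data with log2 changes of 2 between TME-CM and H-CM, 23.2% of 190 changed genes were called at 6 h, 72.4% of 199 at 12 h and 86.7% of 196 at 24 h, with 0 of wrong sign. Depth was 13518 to 7552509 counts per library.

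The 10 members were named whatever their values, but not every group and comparison of each is printed, and Lifr and Clcf1 have no value of 6 h in the text. From the pathway lists, genes called in TME-CM against H-CM at 12 h or 24 h were eligible to be named, at most 5 of smallest p per list and time, along with every other ligand and receptor, except items that are not reported here. For Il6, Lif, Osmr and Socs3 the 3 most correlated genes were named. Members and lists were chosen with earlier results of these data known.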

Additional observations from a re-analysis of the deposited data

Results flagged for a closer look

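In 13 of 84 sets of 4 libraries, each a member in a group, one library lay far from the other 3 by Dixon's test. Chance flags about 1 in 20 independent sets. These sets reuse the libraries of the same 9 groups, so an excess over chance cannot be judged. In TME-CM at 24 h, replicate 1 was the highest for Il6 (22.9 CPM, others 9.4 to 10.6) and for Socs3 (84.7 CPM, others 60.1 to 63.8), and replicate 4 was the lowest for Clcf1 (7.7 CPM, others 12.5 to 12.6). In TME-CM at 6 h, replicate 1 stood out for Il11 (15.6 CPM from 67 counts, others 0), Il6ra (22.4 CPM, others 4.92 to 7.62) and Stat3 (434 CPM, others 240 to 261), and replicate 3 for Il6st (399 CPM, others 114 to 159). In H-CM at 12 h, Clcf1 was at 28.9 CPM in replicate 3 (others 5.11 to 6.69) and Osmr at 36.8 CPM in replicate 1 (others 20.1 to 23). In H-CM at 24 h, Lifr was at 13.3 CPM in replicate 4 (others 8.25 to 8.96) and Stat3 at 336 CPM in replicate 3 (others 288 to 290). In unstimulated EGCs, Socs3 was at 31.5 CPM in replicate 4 at 6 h (others 4.69 to 7.55) and Il6st at 106 CPM in replicate 4 at 24 h (others 113 to 114). Causes were not tested.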

How the results depend on the processing

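For each single result of a member, the fits with a library left out entered as 1, the fit with the highest adjusted p. Counted so, 690 kept their direction and side of the threshold, 14 crossed to being called, 12 lost the call and 19 changed sign. All that changed sign were differences called under neither setting. In that left-out fit, signs changed for Il6st (0.11) in H-CM against unstimulated at 6 h. They also changed for Clcf1 (0.05) and Lifr (0.10) in TME-CM against H-CM at 12 h. In H-CM against unstimulated they changed for Stat3 at 12 h (-0.00) and Il6 at 24 h (-0.16). For the change of the effect over H-CM, signs changed for Lif (-0.10) and Socs3 (0.03) from 12 h to 24 h and Il6 (-0.01) and Il6ra (0.08) from 6 h to 24 h. Left-out fits not counted here changed more signs of uncalled differences. For the change from 12 h to 24 h they did so in 7 of 16 fits for Il6st and 10 of 16 for Socs3. Il6 in H-CM against unstimulated at 12 h reached -0.67 in 1 of 8 fits. For the change from 12 h to 24 h, DESeq2 size factors gave -0.00 for Lif and Il6st, the DESeq2 Wald test -0.00 for Il6st, and all 36 libraries -0.03 for Lif and -0.00 for Il6st. For TME-CM against H-CM at 6 h, 1 member was called, against 0 with DESeq2 size factors, 2 without the filter, 2 with the DESeq2 Wald test, 2 with only the groups compared, 4 with all 36 libraries in one model, and 0 to 1 with one library left out. For TME-CM against unstimulated at 6 h, the 1 became 2 without the filter, 2 with the DESeq2 Wald test, 6 with all 36 libraries, and 0 to 2 with one library left out. At 24 h, all 36 libraries in one model gave 2 in place of 4 over H-CM and 3 in place of 6 over unstimulated. With one library left out, those counts were 4 to 4 and 4 to 6, and at 12 h they were 3 to 3 and 3 to 4. H-CM against unstimulated at 24 h gave 1 with the DESeq2 Wald test in place of 0. Leaving out the gene Yam1, or the 2 libraries under 300000 counts at 6 h, changed no call, both chosen after seeing the data. The causes were not tested.

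Replicate numbers are shared across groups in the labels. Same-numbered libraries deviated together (correlation over 0.1) in 1, 2 and 2 of 12 pairs at 6, 12 and 24 h. Differently numbered libraries did so in 0, 3 and 3 of 36 pairs. Median correlations were 0.011, 0.03 and 0.066 for the same number, and -0.003, -0.004 and -0.012 otherwise. These values cannot decide whether the numbers pair the samples. The main tests used no pairing, and the block was run beside them. With the replicate block, TME-CM against H-CM at 6 h called 0 members (Osmr 2.74, adjusted p = 0.102), and no other call of a member changed. Signs changed under the block for uncalled differences only, namely Socs3 in H-CM against unstimulated at 6 h (0.07), Clcf1 in TME-CM against H-CM at 12 h (0.05), and the change from 12 h to 24 h of Lif (-0.15), Il6st (-0.02) and Socs3 (0.03). At 6 h the depth limits what could be seen, since a count of 0 allows 0.639 to 110 CPM.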

Other observations

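Stat2, which carries interferon signals, answered to both media. It was at 5.79 ± 3.01 CPM (SD, n = 4) in unstimulated EGCs, 37.9 ± 22.2 in H-CM and 72.7 ± 18.4 in TME-CM at 12 h. It rose above the unstimulated level in H-CM (log2 fold change 2.60, SE 0.39, adjusted p = 0.0025, edgeR) and in TME-CM (3.55, SE 0.40, adjusted p = 1.04e-05), and the difference between TME-CM and H-CM was 0.95 (SE 0.35, adjusted p = 0.248). Of 12 kinase, STAT and shedding protease genes, 0 of the 10 tested at 12 h and 0 of the 11 tested at 24 h differed between TME-CM and H-CM by edgeR. Over all genes tested, 1.89% and 5.4% were called in either direction in that comparison. At 24 h, 4 of the 11 were higher in TME-CM than unstimulated, where 4.82% of all genes were called higher. Among the 4 were the kinase Jak2 (0.63, SE 0.20, adjusted p = 0.0425, edgeR) and the protease Adam17 (0.81, SE 0.16, adjusted p = 0.00165). Stat2, Jak2 and Adam17 were named after their values were seen.

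Of 15 further negative regulators of the pathway, 0 differed between TME-CM and H-CM at 12 h and 1 at 24 h. Over all genes tested, 1.89% and 5.4% were called in either direction, so 1 of 15 is near that share. It was Socs2, which fell from 93.7 ± 17.6 to 62.1 ± 12.5 CPM (log2 fold change -0.61, SE 0.16, adjusted p = 0.029, edgeR).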
